A study of Homo sapiens with 4 samples.

Results

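The genes described here are 10 early-response genes of the EGR, KLF and IER families, namely EGR1, EGR2, EGR3, KLF2, KLF4, KLF5, KLF6, KLF10, IER2 and IER3. A probe set was taken as a member's when GEO's platform annotation mapped it to that gene symbol alone, and the brightest of a gene's probe sets, by mean log2 signal over the arrays, stood for the gene. This gave 9 of the 10 genes, out of 19775 genes with a probe set, measured by 18 probe sets; EGR2 was not analysed here. All cells were MIA PaCa-2, an established human line of epithelial pancreatic carcinoma. The control group (arrays a and b) carried a GFP lentivirus. The ING3 group (arrays a and b) carried a lentivirus for FLAG-tagged full-length ING3 in a CMV/TO vector with puromycin selection. ING3 is a subunit of a histone acetyltransferase complex. Both groups came from stably selected cells, harvested below confluence in medium with serum and antibiotic, without a stated number of clones, and the 2 arrays of each group are described in the design text as technical duplicates. Every p-value below therefore sets a difference against the spread between technical duplicates of 1 cell population per group.

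Immediate early genes are transcribed within minutes of a growth factor, serum or stress signal, without new protein synthesis. In the best known route, ERK phosphorylates ternary complex factors such as ELK1, which together with serum response factor (SRF) bind CArG boxes in the promoters of EGR1 and FOS. EGR proteins are zinc finger activators that bind GC-rich sites and are held back by the NAB corepressors. KLF proteins carry a similar set of 3 zinc fingers and bind GC-rich and CACCC sites, where some activate and others repress. IER2 and IER3 are short-lived proteins without zinc fingers.

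The values are MAS5 signal intensities. The ING3 transcript itself, the check of the labels, read 338 and 373 in control and 521 and 541 in ING3 cells (log2 difference 0.58, SE 0.13, limma adjusted p = 0.071). Over the 12190 genes tested, duplicates correlated at 0.989 and 0.991 across genes and arrays of different groups at 0.987 to 0.988. RNA integrity, read as 3' over 5' signal of ACTB, gave ratios of 2.58 (array a) and 1.80 (array b) for control cells. For ING3 cells they were 2.05 and 2.03, so the control arrays lay on both sides of the ING3 arrays. The same ratio for GAPDH was 0.93 and 0.91 for control cells and 0.90 and 0.92 for ING3 cells. Of 7 epithelial markers 5 passed the filter on dim genes, while EPCAM and CDH1, which define many epithelia, did not (signals of at most 37.9 and 19.7). The epithelial markers summed to 42993 to 43078 in control and 48863 to 52396 in ING3 cells, and KRT8, KRT19 and MUC1 rose. KRT18, the brightest, read 26440 and 25701 in control and 27068 and 30058 in ING3 cells and was not called. KRT7 differed by -0.16 on the log2 scale (SE 0.36), and EPCAM and CDH1, below the filter, by -0.61 and -0.34. The part of the epithelial markers in the results below was not tested. Sums for the other cell types were 6951 to 7090 and 6038 to 6440 for fibroblasts and stellate cells (5 of 7 past the filter), 426 to 510 and 401 to 485 for endothelium (2 of 5), 307 to 514 and 434 to 599 for leukocytes (2 of 5), 98.1 to 124 and 22.5 to 78.3 for acinar cells (0 of 4), and 23.4 to 45.4 and 26.0 to 63.5 for endocrine cells (0 of 4), control before ING3. None of those markers was called by limma.

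Promoters are shown for the called genes EGR1 and KLF2, which differ in the motifs searched. KLF6 and IER2 are shown as bright members that were not called. Only the motifs named below were searched, and sites of other factors were not looked for. Each line gives the 250 bases before the annotated gene start, 5′ to 3′ on the gene's strand (RefSeq, GRCh38.p14). Capitals mark CArG boxes by their consensus, TGACG (the half-site of CREB and ATF factors) and GCGGGGGCG (a site of EGR factors), on either strand.
EGR1, chr5:138465229-138465478, plus strand: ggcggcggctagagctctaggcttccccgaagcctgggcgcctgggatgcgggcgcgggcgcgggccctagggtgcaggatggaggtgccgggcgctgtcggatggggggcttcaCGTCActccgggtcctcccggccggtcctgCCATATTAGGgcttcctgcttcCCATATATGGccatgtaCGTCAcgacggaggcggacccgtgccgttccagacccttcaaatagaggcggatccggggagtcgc
KLF2, chr19:16324576-16324825, plus strand: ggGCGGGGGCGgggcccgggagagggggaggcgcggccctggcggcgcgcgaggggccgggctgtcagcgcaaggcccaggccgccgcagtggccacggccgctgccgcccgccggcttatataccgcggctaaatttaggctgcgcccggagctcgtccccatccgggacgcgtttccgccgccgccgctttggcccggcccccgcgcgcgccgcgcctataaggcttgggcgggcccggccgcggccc
KLF6, chr10:3785210-3785459, minus strand: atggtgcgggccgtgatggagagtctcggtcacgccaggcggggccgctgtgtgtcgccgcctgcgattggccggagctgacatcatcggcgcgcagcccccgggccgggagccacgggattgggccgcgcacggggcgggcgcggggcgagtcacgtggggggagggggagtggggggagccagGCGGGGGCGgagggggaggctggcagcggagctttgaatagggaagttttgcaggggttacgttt
IER2, chr19:13150161-13150410, plus strand: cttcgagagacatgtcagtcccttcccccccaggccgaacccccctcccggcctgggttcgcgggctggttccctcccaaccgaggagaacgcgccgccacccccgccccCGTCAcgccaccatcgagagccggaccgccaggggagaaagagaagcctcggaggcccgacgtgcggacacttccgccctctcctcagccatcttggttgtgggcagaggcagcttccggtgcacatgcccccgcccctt
The EGR1 window held 2 CArG boxes, CCATATTAGG at 105 to 96 and CCATATATGG at 83 to 74 bases before the start, and 2 TGACG half-sites. KLF2 and KLF6 each held 1 GCGGGGGCG, and IER2 held 1 TGACG on the opposite strand. Of the 6 measured genes with promoters searched (7 windows, 2 of them of KLF5), EGR1 alone had a CArG box, 4 had TGACG, 2 had GCGGGGGCG, 5 had the GC box GGGCGG and 3 had CACCC. Among 35114 RefSeq promoter windows of the same length, a CArG box was found in 1.16%, TGACG in 21.2%, GCGGGGGCG in 4.72%, GGGCGG in 42.6% and CACCC in 54.7%. No member's window held the full palindrome TGACGTCA (1.65% of all windows). Matches to GGGCGG and GCGGGGGCG can overlap each other. A match here is a description of letters, not of binding.

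Of the 9 measured genes, EGR1 and KLF2 rose in the ING3 cells, 0 fell and 7 did not pass the test. A gene was called at a limma adjusted p under 0.05 over all genes tested. Across all tested genes 1.03% were called higher and 0.476% lower. Among the 6192 genes at least as bright as EGR3, the dimmest member but for KLF5, 1.70% were called higher and 0.694% lower. Both ING3 arrays lay above both control arrays for 8 of the 9 members, against 24.3% of all tested genes and 31.9% of the genes at least as bright as EGR3. KLF5, with a signal near the filter, was the exception, with both ING3 arrays below, as for 24.9% of all tested genes. By group means, too, 8 of 9 members were higher in ING3 cells, against 48.3% of all tested genes and 55.0% of those at least as bright as EGR3. The members' median log2 difference, ING3 minus control, was 0.30, against -0.0074 for all tested genes and 0.018 for those at least as bright as EGR3. The median absolute log2 distance between duplicates was 0.10 for the members in control and 0.096 in ING3 cells. For 8 members the unadjusted limma p was under 0.05, all with higher values in the ING3 cells, against 17.7% of all tested genes and 22.8% of those at least as bright as EGR3, in either direction. The call of both genes needed both control arrays and the intensity trend in the variance: without control array a, without control array b or with eBayes without the trend, limma called 0 of 9 members, with 5 at an unadjusted p under 0.05 in each case, against 11.3%, 12.1% and 13.8% of all tested genes in those 3 fits.

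**Figure D1:**
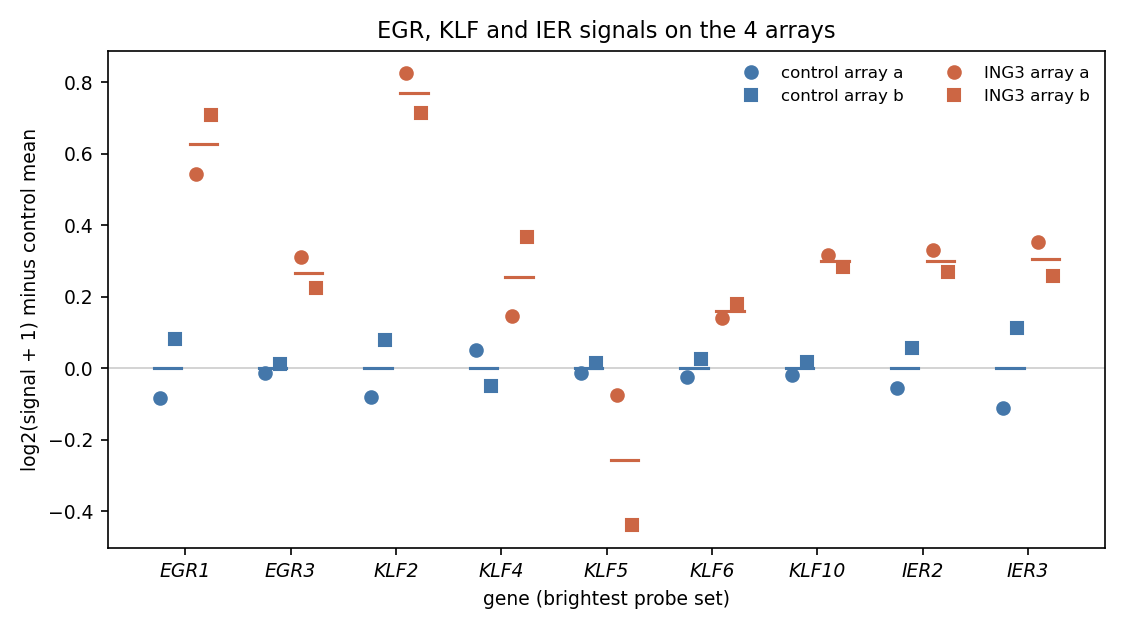
Log2(signal + 1) of each gene's brightest probe set on the 4 arrays, with the control mean of that gene set to 0; circles are arrays a, squares arrays b and short lines group means. The ING3 arrays lie above the control arrays for 8 genes and below them for KLF5, and the log2 difference of the means is largest for KLF2 (0.77) and EGR1 (0.63).

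EGR1, the zinc finger factor that is the usual readout of ERK signalling at chromatin, lies at chr5:138465479-138469303. Its brightest probe set (201694_s_at) read 6433 and 7217 on control arrays a and b, and 9939 and 11130.3 on ING3 arrays a and b. Both ING3 arrays were high and the groups did not overlap, and array a was the lower of the duplicates in each group. The log2 difference was 0.63 (SE 0.076, 95% interval 0.45 to 0.80, limma adjusted p = 0.0079), a 1.54-fold rise, which ranked 177th from the top of 12190 genes by size and 22nd by p. The 4 array-by-array differences ran from 0.46 to 0.79, and the group difference was 3.77 times the larger gap between duplicates. Without control array a the limma adjusted p was 0.195, without control array b 0.122, and with eBayes without an intensity trend 0.237.

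The other EGR1 probe sets went the same way by smaller amounts. Probe set 227404_s_at read 1667 and 1594 in control and 2323 and 2022 in ING3 cells, which is 0.41 on the log2 scale (SE 0.089). Probe set 201693_s_at read 1429 and 1398 in control and 1734 and 1622 in ING3 cells, or 0.25 on that scale (SE 0.081). The groups did not overlap for any of the 3 EGR1 probe sets. In a limma fit over the 27307 probe sets past the filter, in which 0.267% were called higher and 0.103% lower, only the brightest passed (adjusted p = 0.026), with 0.101 and 0.22 for the others. The mean over the 3 probe sets differed by 0.43 (limma adjusted p = 0.018).

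EGR3, a relative of EGR1 known from muscle spindles and lymphocytes, lies on chromosome 8 and had 1 probe set (206115_at). It read 686 and 698 in control and 859 and 809 in ING3 cells. The groups did not overlap, and the duplicates were close. EGR3 differed by 0.27 on the log2 scale (SE 0.10, 95% interval 0.041 to 0.50), and the gene did not pass (limma adjusted p = 0.217). Of the genes around the EGR factors, the corepressors NAB1 and NAB2, EGR4 and WT1, a zinc finger factor with EGR-like sites, 0 of 4 were called (0 at an unadjusted p under 0.05, limma), with a median log2 difference of 0.16. NAB1, which restrains EGR1, read 2500 and 2639 in control and 2415 and 2403 in ING3 cells (log2 difference -0.093, SE 0.069). NAB2, itself an EGR1 target, read 306 and 235 in control and 356 and 286 in ING3 cells (0.25, SE 0.19), and its groups overlapped.

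KLF2, a factor of endothelial quiescence and lymphocyte trafficking, lies at chr19:16324826-16328685 and had the largest difference of the members. Its brightest probe set (219371_s_at) read 1829.9 and 2045 in control and 3427 and 3171 in ING3 cells. Both ING3 arrays were high, and the groups did not overlap. The log2 difference was 0.77 (SE 0.080, 95% interval 0.59 to 0.95, limma adjusted p = 0.0044), a 1.70-fold rise, ranked 89th of 12190 by size and 9th by p. The 4 array-by-array differences ran from 0.63 to 0.90. Without control array a the limma adjusted p was 0.143, without control array b 0.0804, and with eBayes without an intensity trend 0.237.

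The rise of KLF2 rests on that probe set. The second one (226646_at) was dim, at 125 and 84.3 in control and 88.1 and 164 in ING3 cells. Its groups overlapped, its ING3 duplicates stood 0.89 apart on the log2 scale, and its log2 difference was 0.23 (SE 0.36, limma adjusted p = 0.802). The mean of both probe sets differed by 0.50 and did not pass (limma adjusted p = 0.146). Of the endothelial markers, VWF, KDR and TEK were below the filter. CDH5 read 303 and 288 in control and 328 and 257 in ING3 cells. PECAM1 read 147 and 112 in control and 120 and 100 in ING3 cells.

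**Figure D2:**
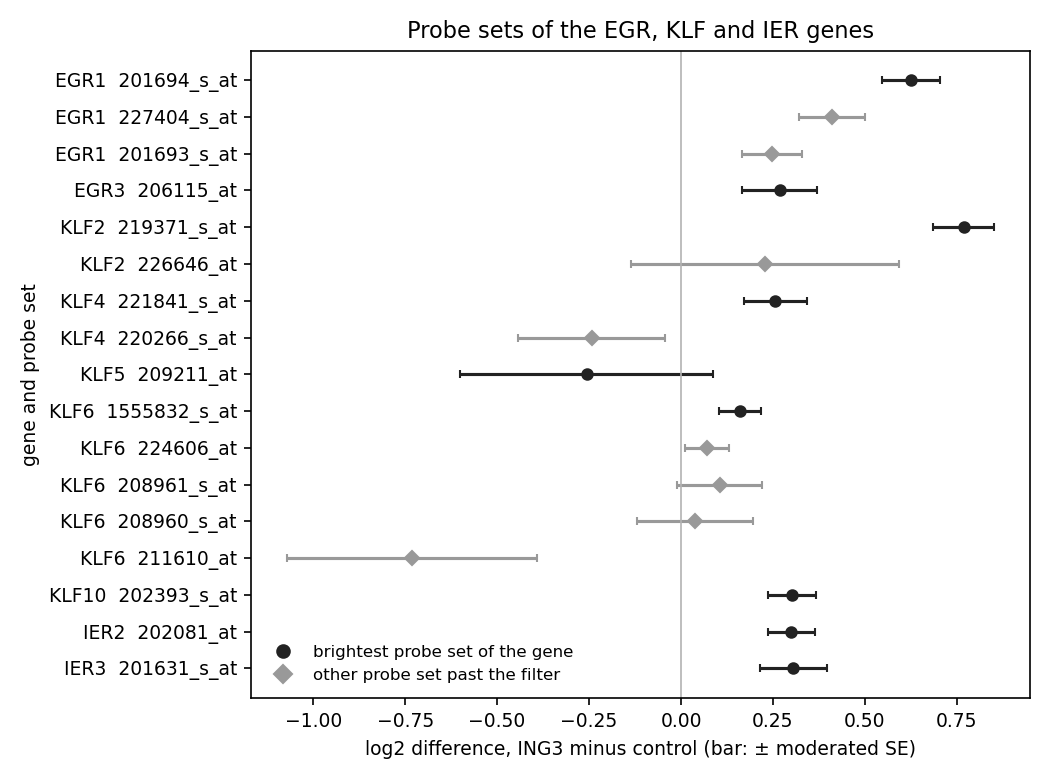
Log2 difference, ING3 minus control, of the 17 member probe sets past the filter on dim signal, with the moderated SE as bars; circles are each gene's brightest probe set and diamonds the others. All 3 EGR1 probe sets lie to the right of 0, the second KLF2 probe set has an SE of 0.36, and the second KLF4 probe set, the KLF5 probe set and the dimmest KLF6 probe set lie to the left of 0.

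KLF4, a factor of epithelial differentiation and of reprogramming to pluripotency, lies at chr9:107484852-107489769. Its brightest probe set (221841_s_at) read 3556 and 3315 in control and 3798 and 4428 in ING3 cells. The ING3 arrays were higher, but ING3 array b stood well above ING3 array a, and the group difference was 1.16 times that gap. KLF4 differed by 0.26 on the log2 scale (SE 0.083, 95% interval 0.070 to 0.44, limma adjusted p = 0.157). Without ING3 array a it was called, at 0.37 (limma adjusted p = 0.0351), while without ING3 array b it was 0.15 (0.387) and without control array b 0.21 (0.494). The second KLF4 probe set (220266_s_at) went the other way, with 218 and 204 in control and 167 and 189.7 in ING3 cells (log2 difference -0.24, SE 0.20), and the mean of both differed by 0.0067. The direction for KLF4 therefore differed between its probe sets.

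KLF6, a widely expressed factor induced by tissue injury, lies at chr10:3775996-3785209 and had 5 probe sets. The brightest (1555832_s_at) read 8889 and 9201 in control and 9976 and 10248 in ING3 cells. The groups did not overlap, but the step was small, at a log2 difference of 0.16 (SE 0.055, 95% interval 0.037 to 0.29, limma adjusted p = 0.179). Of the others, 224606_at read 6768 and 6576 in control and 6845 and 7160.1 in ING3 cells (log2 difference 0.070). Probe sets 208961_s_at and 208960_s_at differed by 0.11 and 0.038, with overlapping groups. The dimmest, 211610_at, read 207 and 108 in control and 88.7 and 91.0 in ING3 cells (-0.73, SE 0.34), with control array a far above the other arrays. The mean over the 5 probe sets had the other sign, -0.072 (limma adjusted p = 0.709), so the sign for KLF6 depended on the probe sets used.

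KLF10, first named as a gene induced early by TGF-beta, lies on chromosome 8 and had 1 probe set (202393_s_at). It read 2985 and 3064 in control and 3769 and 3682 in ING3 cells. The larger gap between duplicates was the smallest among the members, and the group difference was 8.01 times that gap. On the log2 scale the difference was 0.30 (SE 0.063, 95% interval 0.16 to 0.44), just short of the threshold (limma adjusted p = 0.054). Testing only genes in the upper quartile of signal, which leaves fewer tests, called it (limma adjusted p = 0.0417), as did the array letter as a block (0.0303). Quantile normalization, cyclic loess, no filter and no intensity trend left it uncalled (limma adjusted p of 0.0884, 0.0753, 0.11 and 0.296).

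KLF5, a factor of proliferating epithelia, lies at chr13:73054976-73077538 and was dim on both probe sets. The brighter (209211_at) read 75.9 and 77.4 in control and 72.8 and 56.3 in ING3 cells, against a filter at a signal of 64.6. The log2 difference was -0.26 (SE 0.37, 95% interval -1.09 to 0.58, limma adjusted p = 0.771), and the gap between the ING3 duplicates (0.36) exceeded it. The second probe set (209212_s_at), below the filter, read 117 and 8.36 in control and 40.9 and 10.4 in ING3 cells. The interval for KLF5 includes both the difference seen for IER3 and 0.

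Of the 20 other KLF and SP genes listed, 13 were tested and 0 were called (limma; 1 at an unadjusted p under 0.05), with a median log2 difference of 0.0048, 7 means higher and 6 lower. Across all tested genes, 17.7% had an unadjusted p under 0.05 (limma). Both ING3 arrays lay above both control arrays for 2 of the 13 and below for 4, against 24.3% and 24.9% of all tested genes. Their log2 differences ran from -0.36 to 0.54. The 5 KLF members had a median of 0.26. Whether the members differ from the rest of their family was not tested.

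IER2, a nuclear early-response protein, lies at chr19:13150411-13154911 and had 1 probe set (202081_at). It read 7150 and 7722 in control and 9344 and 8958 in ING3 cells. The groups did not overlap, and the log2 difference was 0.30 (SE 0.062, 95% interval 0.16 to 0.44). It lay at the threshold without passing it (limma adjusted p = 0.0501). IER2 passed in the upper quartile of signal (limma adjusted p = 0.0421) and with the array letter as a block (0.0269). Quantile normalization, cyclic loess, no filter and no intensity trend left it uncalled (limma adjusted p of 0.0827, 0.103, 0.125 and 0.319). With 1 array left out the log2 difference ran from 0.24 to 0.36. The 95% interval for IER2 rests on the spread between technical duplicates, moderated over all genes, and is not adjusted for the number of genes tested.

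IER3, a stress-induced regulator of cell survival, lies at chr6:30743199-30744547 and had 1 probe set (201631_s_at). It read 1932 and 2257 in control and 2669 and 2497 in ING3 cells. The groups did not overlap, but the control duplicates were 0.22 apart on the log2 scale, the widest control gap of the members. The log2 difference was 0.31 (SE 0.088, 95% interval 0.11 to 0.50, limma adjusted p = 0.122). It ranged from 0.19 without control array a to 0.42 without control array b. The other IER genes, IER5 and IER5L, read 1244 and 1228 against 1231 and 1319, and 574 and 613 against 549 and 615, control before ING3. Their log2 differences were 0.044 (SE 0.084) and -0.030 (SE 0.12), and both had overlapping groups.

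**Figure D3:**
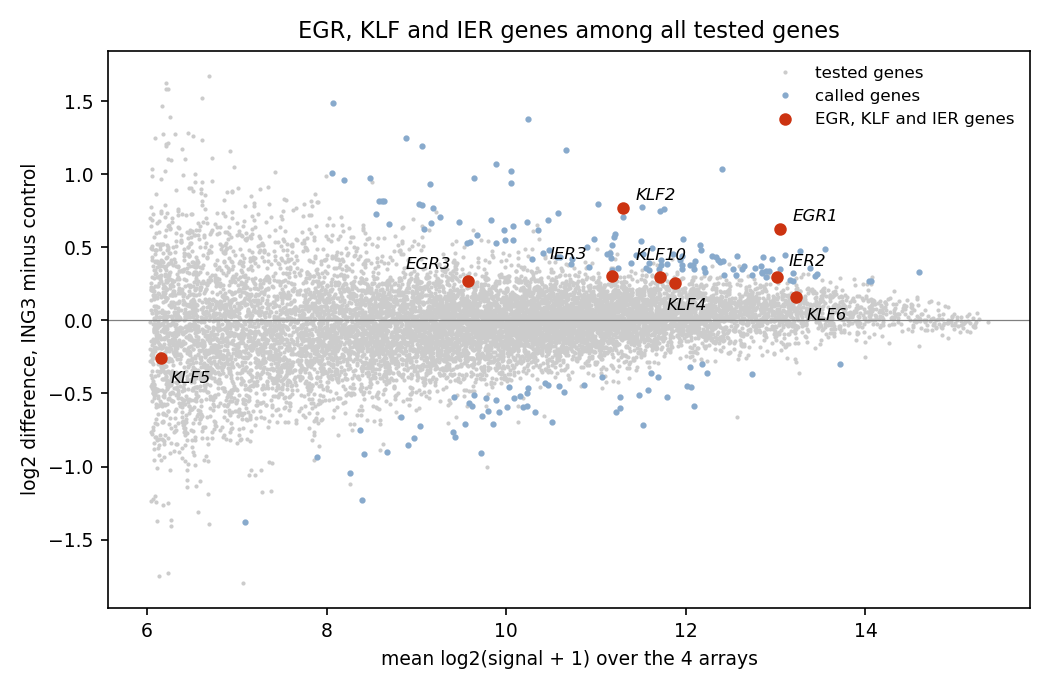
Log2 difference, ING3 minus control, against mean log2(signal + 1) over the 4 arrays for the 12190 tested genes (grey), the 183 called genes (blue) and the 9 members (red). KLF2 and EGR1 lie above most genes of like brightness, and the other bright members lie between 0.16 and 0.31.

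The differences lay in a narrow range for 5 of the members. EGR3, KLF4, KLF10, IER2 and IER3 had log2 differences between 0.26 and 0.31, at about 1.19-fold to 1.24-fold, and lay between the 90.2th and 93.0th percentile of all tested differences. KLF2 and EGR1 lay at the 99.3th and 98.6th percentile, KLF6 at the 81.4th and KLF5 at the 14.2th. The median centred profile of the members was -0.17 and -0.12 for control arrays a and b and 0.18 and 0.12 for ING3 arrays a and b. The 5 other genes at the smallest Euclidean distance from it over the 4 arrays were OPN3, MFF, BRD9, ETHE1 and USP12, at distances of 0.022 to 0.032. Their log2 differences were 0.27 to 0.31, and none was called (limma adjusted p of 0.0501 to 0.312). With 4 arrays this likeness says little more than that their differences have the same size.

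The other immediate early genes that were tested mostly had higher signals in the ING3 cells as well. Of 31 listed, 26 were tested: 6 rose and 0 fell (limma), 23 means were higher, and both ING3 arrays lay above both control arrays for 22 of 26. Of all tested genes, 1.03% were called higher, 48.3% had a higher mean and 24.3% had both ING3 arrays above. Among the genes at least as bright as EGR3 these shares were 1.70%, 55.0% and 31.9%. The list was chosen with earlier results of these data known, so its counts are a description only. Their median log2 difference was 0.33. The 4 called genes with the largest difference were CCN1, a matricellular protein (1.68-fold), the AP-1 subunits FOSL1 (1.66-fold) and JUNB (1.63-fold), and the ERK phosphatase DUSP5 (1.54-fold). FOSL1 read 1215 and 1153 in control and 2122 and 1822 in ING3 cells. FOS was dim, at 62.3 and 98.2 in control and 130 and 125 in ING3 cells, and was not called (limma adjusted p = 0.307). NR4A1 and NFKBIZ had lower means (log2 differences -0.48 and -0.11), with overlapping groups. FOSB, NR4A2, NR4A3 and ARC were below the filter. FOS and the genes after it here were named after their values were seen. SRF, which is itself on that list, had lower values, and is given next.

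The lists of factors and kinases upstream of these genes had median differences near 0. For comparison with the counts below, 17.7% of all tested genes had an unadjusted p under 0.05 (limma). Of 11 SRF, ternary complex, MRTF, CREB and ETS factors, 9 were tested and 0 called (limma; 1 at an unadjusted p under 0.05), with a median log2 difference of -0.060. SRF read 669 and 634 in control and 568 and 510.1 in ING3 cells (log2 difference -0.27, SE 0.12, limma adjusted p = 0.265), and its coactivators MRTFA and MRTFB differed by -0.26 (SE 0.17) and -0.19 (SE 0.11). The ternary complex factors ELK1, ELK3 and ELK4 differed by 0.015, 0.092 and 0.066. Of 21 genes of the RAS-RAF-MEK-ERK cascade 16 were tested and 0 called (limma; 3 at an unadjusted p under 0.05), with a median of -0.012. MAP2K1, which encodes MEK1, differed by -0.016 (SE 0.079) and MAPK3, which encodes ERK1, by -0.083 (SE 0.12). HRAS, a RAS gene, read 1813 and 2010 in control and 1505 and 1393 in ING3 cells (-0.40, SE 0.085, limma adjusted p = 0.0579), and the receptor gene ERBB3 differed by -0.41 (SE 0.21), both with the ING3 arrays below the control arrays. In the MEK5-ERK5-MEF2 axis, the known inducer of KLF2 and KLF4 in endothelium, 0 of 6 tested genes were called (limma; 2 at an unadjusted p under 0.05), with a median of -0.030. In that axis 3 means were higher and 3 lower. MAPK7, which encodes ERK5, differed by -0.13 (SE 0.17) and MAP2K5, which encodes MEK5, by 0.31 (SE 0.15). MAP3K3 and MEF2A differed by -0.29 (SE 0.10) and -0.18 (SE 0.075). Arrays measure transcripts, so the activity of these kinases was not measured.

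Known targets of the members were mixed. Of all tested genes, 1.03% were called higher, 48.3% had a higher mean and 17.7% had an unadjusted p under 0.05 (limma). Of 14 tested genes of 20 listed as EGR1 targets, 1 rose and 0 fell (limma; 4 at an unadjusted p under 0.05). Of these 14, 5 means were higher and 9 lower, with a median log2 difference of -0.047. PLAU, urokinase, was the one that rose (1.25-fold). The growth factor genes PDGFA, TGFB1 and FGF2 differed by -0.32, -0.41 and -0.33 (SE 0.13, 0.20 and 0.12), and the growth factor genes PDGFB and VEGFA of the same list by -0.031 and 0.031 (SE 0.19 and 0.058). Of 9 tested genes of 18 listed for KLF2 and KLF4, KRT19, a ductal keratin, rose 1.43-fold and 0 fell, with 7 means higher and a median of 0.16. KRT19 is also an epithelial marker. The KLF2 target of endothelium NOS3 read 126 and 155 in control and 176 and 157 in ING3 cells (log2 difference 0.25, SE 0.24). CDKN1A, the p21 gene and a KLF4 and KLF6 target, differed by 0.34 (SE 0.17, limma adjusted p = 0.33). Of 13 tested genes of 17 listed for KLF5, KLF6 and KLF10, 0 were called (limma; 5 at an unadjusted p under 0.05), with a median of -0.0098. LAMB1, a laminin chain, differed most, from 170 and 169 to 319 and 282 (0.82, SE 0.19, limma adjusted p = 0.0695). NAB1, NAB2, IER5, IER5L, LAMB1, PDGFA, TGFB1, FGF2, PDGFB, VEGFA, NOS3, CDKN1A and the single upstream factors and kinases were named after their values were seen.

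**Figure D4:**
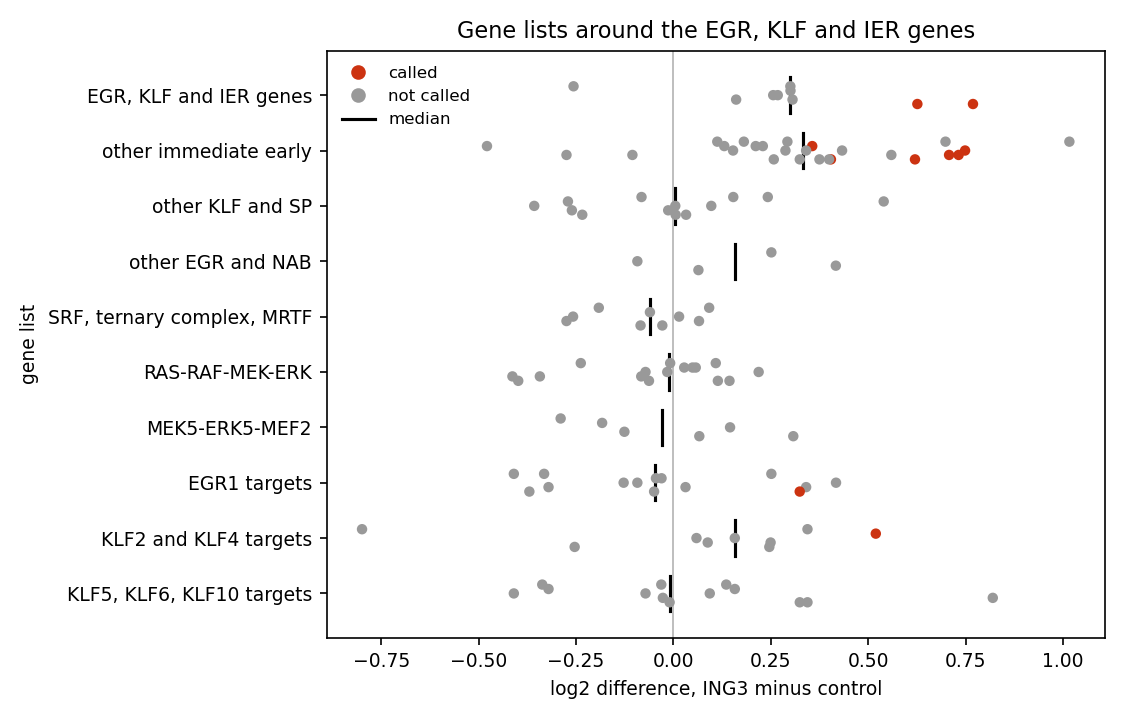
Log2 differences, ING3 minus control, of the tested genes of each list, with called genes in red, others in grey and the median as a black line. The members and the other immediate early genes have medians of 0.30 and 0.33, while the lists of upstream factors and kinases and of EGR1 targets have medians between -0.060 and -0.012.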

How the data were processed

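Signal intensity values for 54675 probe sets on 4 arrays were made by the authors with MAS5 in Affymetrix Expression Console, according to the submitters' processing notes, which name no version. The deposited intensity values are linear, and each array has a mean of 500.1 after trimming of the extremes, so all arrays had been scaled alike. The table carries no detection calls. Signals were transformed as log2(signal + 1), 62 control probe sets were left out, and 41091 probe sets with 1 gene symbol gave 19775 genes. The 12190 genes with a mean log2 at or above the median probe set (signal 64.6) were tested with limma 3.58.1 in R 4.3.3 (lmFit, eBayes with an intensity trend, two-sided, no covariates, Benjamini-Hochberg adjustment). An exact permutation test with 2 arrays in each group cannot go below p = 0.333, so none was used. The fit had 2 residual and 7.35 prior degrees of freedom, and intervals are 95%. The procedure was checked on simulated data drawn from the variance model of the fit. It recovered 54% of 100 genes changed 1.5-fold and 78% of 100 changed 2-fold, with 11 false calls among 143. Smaller changes, the size seen for most members, were not simulated.

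Members and lists were chosen with earlier results of these data known. The text names all members and, from each list, at most 4 called genes with the largest difference; further genes are named as stated. Fold changes are on the log2(signal + 1) scale. Alternatives covered scaling, pseudocount, filter, variance model, choice of probe set, each array left out and the array letter as a block. RefSeq promoters came from a table of GRCh38.p14. The number of arrays limits the precision. The probe sets ending in _s_at can detect related transcripts.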

Additional observations from a re-analysis of the deposited data

How the results depend on the processing

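The median log2 difference of the members stayed between 0.26 and 0.32 over the 13 alternatives, and no member was called lower in any. With quantile normalization, cyclic loess or a pseudocount of 16, EGR1 and KLF2 were the members called. Counts depended more on the settings. The members called higher were 4 with the upper quartile filter, 0 with eBayes without an intensity trend and 1 with the mean over probe sets. Taking the brightest probe set not of the _x_at or _s_at kind, where a gene had one, also called 1, EGR1. All 3 EGR1 probe sets are of the _s_at kind, so EGR1 kept its usual probe set in that fit. KLF2, read there by 226646_at, was not called (limma adjusted p = 0.798). All genes called higher were 79 with quantile normalization, 42 without the filter, 0 without the trend (1686 genes at an unadjusted p under 0.05 in either direction), 80 with the mean over probe sets, 83 with the other probe set choice and 2 to 189 with 1 array left out, against 125. Those called lower were 36 with quantile normalization, 36 with cyclic loess, 12 without the filter, 0 without the trend and 0 to 116 with 1 array left out, against 58. Other immediate early genes called higher were 0 without the trend and 0 to 8 with 1 array left out, against 6. The mean over probe sets reversed KLF6, at -0.072. Where an array is left out, the lone array of its group is assumed to vary like the other group's pair.

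The labels do not say that array letters pair the groups, and the a minus b differences of the groups correlated at 0.029 across genes. With the letter as a replicate block, 4 members (EGR1, KLF2, KLF10 and IER2), 10 other immediate early genes, 263 genes higher and 179 lower were called. Technical duplicates of 1 population per group limit every statement to these populations, and signals near the filter, as for KLF5, leave wide intervals.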

Other observations

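Genes that act on the stability of early-response transcripts were also looked at. Immediate early mRNAs are short-lived because proteins such as ZFP36 bind AU-rich elements in their tails. Of 10 genes for AU-rich element binding proteins 0 were called (limma; 2 at an unadjusted p under 0.05), with a median log2 difference of 0.049. Such an unadjusted p was reached by 17.7% of all tested genes. ZFP36, which promotes decay and is itself an early-response gene, read 623 and 556 in control and 741 and 814 in ING3 cells (0.40, SE 0.12, limma adjusted p = 0.123). TIA1, a translational silencer, read 1530.4 and 1590.3 in control and 1263 and 1026 in ING3 cells (-0.45, SE 0.11, limma adjusted p = 0.0751).

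KLF10 is a TGF-beta response gene, so the ligands, receptors and SMADs of that pathway were listed. Of 13 genes 10 were tested and 0 called (limma; 4 at an unadjusted p under 0.05), with a median log2 difference of -0.020. Such an unadjusted p was reached by 17.7% of all tested genes. TGFB1 and TGFB3, which encode ligands, differed by -0.41 (SE 0.20) and -0.51 (SE 0.19). The repressors SKIL and TGIF1, which are themselves induced by the pathway, differed by 0.35 (SE 0.13) and 0.24 (SE 0.068). Genes of the list below the filter, and so not tested, included SMAD7 at -1.61 and the ligand gene TGFB2 at 0.39. The genes named here were chosen after their values were seen.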
